A study of Mus musculus with 6 samples.

Results

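The DNA replication machinery was followed in hematopoietic stem cells with and without LTβR through 44 genes, picked by name for the complex each protein belongs to, by a rule that uses no measured value but was written with earlier results of these data known. All 44 were found among the 26216 gene names measured, each of them once, and all 44 were among the 13108 names tested, which are the upper 50% by mean value. They were grouped into 11 complexes or roles, from the origin recognition complex to nucleotide supply.

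RNA was sequenced from LT/ST-HSCs, the long-term and short-term hematopoietic stem cells, sorted as lineage-, Annexin-V-, sca1+, c-kit+, CD150+ and CD48- cells from mouse bone marrow. Both groups came from the same kind of mixed chimera, in which Ltbr-/- (CD45.2) and Ly5.1 (CD45.1) LSKs, the lineage-, sca1+, c-kit+ progenitors, had been given 1:1 to lethally irradiated Ly5.1/Ly5.2 recipients. The cells were taken at week 6. There were 3 Ltbr-/- samples, from donors aged 13 weeks (replicate 1), 10 weeks (replicate 2) and 10 to 13 weeks (replicate 3), and 3 Ly5.1 samples, each from donors aged 7 to 13 weeks, so that donor age and genotype were not fully separated. Each sample pooled cells of more than 1 chimera, and a p-value measures only the spread between such pools. The deletion is in all cells of the Ltbr-/- donors, whereas the irradiated hosts still carry the receptor.

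Before a cell copies its DNA, the origin recognition complex binds origins and, with Cdc6 and Cdt1, loads the MCM ring, the core of the replicative helicase. Cdc45 and GINS then join the ring and unwinding starts, polymerase alpha and primase lay primers, and polymerases epsilon and delta extend them with the sliding clamp PCNA, while RPA covers the single strands. Many of these genes are transcribed in late G1 and S phase under E2F factors, and resting stem cells are known for low expression of the set.

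The promoters of the 44 genes were searched for E2F and other motifs. RefSeq promoters (GRCm38.p6, 250 bases before to 50 after each start) matched 36 of the 44 genes. Gins1, Gins2, Gins4, Gmnn, Mcm4, Pole, Prim2 and Rfc2 had no matching promoter and were not searched. The E2F letters TTTCCCGC or TTTGGCGC stood on either strand in 13 of the 36, or 36.1%, as against 1.80% of 27025 genes with a promoter and 3.49% of 9179 tested genes. TTTCCCGC alone was in 8 members, among them Cdc6, Mcm3, Mcm7 and Orc3. TTTGGCGC was in 6, which were Cdt1, Mcm3, Mcm5, Mcm6, Pola1 and Pole2. The NF-Y letters CCAAT, searched on both strands and sharing no full match with the E2F letters, were in 23 members (63.9%). They were in 41.1% of all genes and in 43.3% of tested genes. The CHR letters TTTGAA were in 5 members (13.9%), in 20.2% of all genes and in 14.1% of tested genes. Members with E2F letters (13) had a median log2 fold change of −0.054, and those without them (23) one of −0.092. The order depended on the site. The median was −0.042 with TTTCCCGC and −0.094 without it, but −0.10 with TTTGGCGC and −0.065 without it. A match is a description of the letters and not a bound site. The windows around the sites of the MCM genes, Cdc6 and Pola1 are given because these genes recur in the comparisons, 5′ to 3′ on the strand of the gene, with the E2F letters or their reverse complement in capitals.
Mcm3, first site (chr1:20820275-20820304, minus strand): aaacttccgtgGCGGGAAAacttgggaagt
Mcm3, second site (chr1:20820263-20820285, minus strand): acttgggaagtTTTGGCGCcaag
Mcm5 (chr8:75109349-75109378, plus strand): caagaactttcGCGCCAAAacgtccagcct
Mcm6, far site (chr1:128359797-128359826, minus strand): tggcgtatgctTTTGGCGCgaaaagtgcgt
Mcm6, near site (chr1:128359734-128359763, minus strand): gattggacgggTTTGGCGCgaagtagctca
Mcm7 (chr5:138172030-138172059, minus strand): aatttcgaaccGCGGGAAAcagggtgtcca
Cdc6 (chr11:98908002-98908031, plus strand): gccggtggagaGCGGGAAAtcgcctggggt
Pola1 (chrX:93632275-93632304, minus strand): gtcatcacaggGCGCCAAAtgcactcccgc

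Within the origin recognition complex, Orc6 and Orc2 were called in opposite directions. Neither of the promoters shown here, the 250 bases before the RefSeq start and for Orc2 before the outermost of its 2 starts, held the E2F letters. Capitals mark ATTGG, the CCAAT box read on the other strand, which the Orc6 promoter held. The promoter at the other Orc2 start, not shown, held it too, so that both genes count among the members with CCAAT letters.
Orc6 (chr8:85299382-85299631, plus strand): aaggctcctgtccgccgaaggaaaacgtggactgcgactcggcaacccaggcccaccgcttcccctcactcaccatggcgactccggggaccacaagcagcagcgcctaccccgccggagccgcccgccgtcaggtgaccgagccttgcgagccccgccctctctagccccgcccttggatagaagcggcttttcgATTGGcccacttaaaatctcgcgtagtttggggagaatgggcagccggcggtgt
Orc2 (chr1:58505110-58505359, minus strand): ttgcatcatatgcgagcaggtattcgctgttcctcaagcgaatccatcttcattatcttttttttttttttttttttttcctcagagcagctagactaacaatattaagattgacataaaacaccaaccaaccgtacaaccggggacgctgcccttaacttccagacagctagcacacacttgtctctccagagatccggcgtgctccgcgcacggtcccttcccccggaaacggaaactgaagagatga

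The deposited value of a gene is a normalised signal on a linear scale, 2 to the power of a regularized log, and differences were tested on its log2 with limma. Ltbr itself stood at 24.2, 26.4 and 23.1 in the Ltbr-/- samples and at 564, 549 and 522 in the Ly5.1 samples. The 10 LT/ST-HSC markers were all detected and all had a log2 fold change below 0. Their median was −0.16, beside −0.011 for all tested genes. Transcripts of these markers ran from 0.955 kb (Ly6a) to 7.553 kb (Meis1), and the part of transcript length was not tested. Ly6a (log2 fold change −0.39) and Meis1 (−0.23) were called lower in Ltbr-/-, as were Cd34 (−0.31) and Flt3 (−0.28). For this and the following counts, 10.6% of the 13108 tested genes were called higher and 4.18% lower. Granulocyte and monocyte markers summed to between 37562 and 37932 in Ltbr-/- samples and to between 48097 and 52203 in Ly5.1 samples, with 8 of 10 genes called lower. Summed mast cell and basophil markers ranged from 7085 to 7477 and from 3416 to 4021, with Cma1 and Cpa3 called higher among 6. Cma1 made up most of that sum (5470.2 and 2195 on average), 3 of the 6 were below 0 and the median log2 fold change was 0.0095. The summed erythroid markers ranged from 3367 to 3682 and from 2447 to 2681, with Hba-a1 called higher among 5. Summed megakaryocyte markers ranged from 13579 to 14395 and from 11480 to 12767, with Itga2b called higher and Pf4 lower among 4. Itga2b made up most of that sum (11640.2 and 9380.3 on average), 3 of the 4 were below 0 and the median log2 fold change was −0.14. Of the B cell genes tested Cd79a was called higher and Ighm lower, and of 4 T cell genes Cd3e, Cd4 and Cd8a were too low to be tested. The part these markers play in the results on replication genes was not tested, and in bulk samples fewer cells of a type and less RNA per cell cannot be told apart.

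All parts of the machinery were expressed in both groups. Levels are compared between genes as the deposited value per kb of transcript, averaged over the 6 samples. Mcm6 (2102 per kb), at percentile 96.7 of the tested genes, and Mcm3 (2036) were the highest, and the 6 MCM genes ran down to 853 (Mcm4). Pcna (1492 per kb), Lig1 (1432), Pold2 (1408), Rrm1 (1399) and Pold1 (1209) lay within that range. The lowest level was that of Gins3, a GINS subunit, at 32.0 per kb and percentile 20.9. Genes of one complex were not at one level. In the origin recognition complex the level per kb spanned from 89.2 (Orc1) to 892 (Orc6), a ratio of 9.99, and among GINS and Cdc45 from 32.0 to 657 (Cdc45), a ratio of 20.6. The MCM genes stayed within a ratio of 2.47, and Pole and Pole2, the catalytic and second subunits of polymerase epsilon, stood at 349 and 362 per kb.

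**Figure D1:**
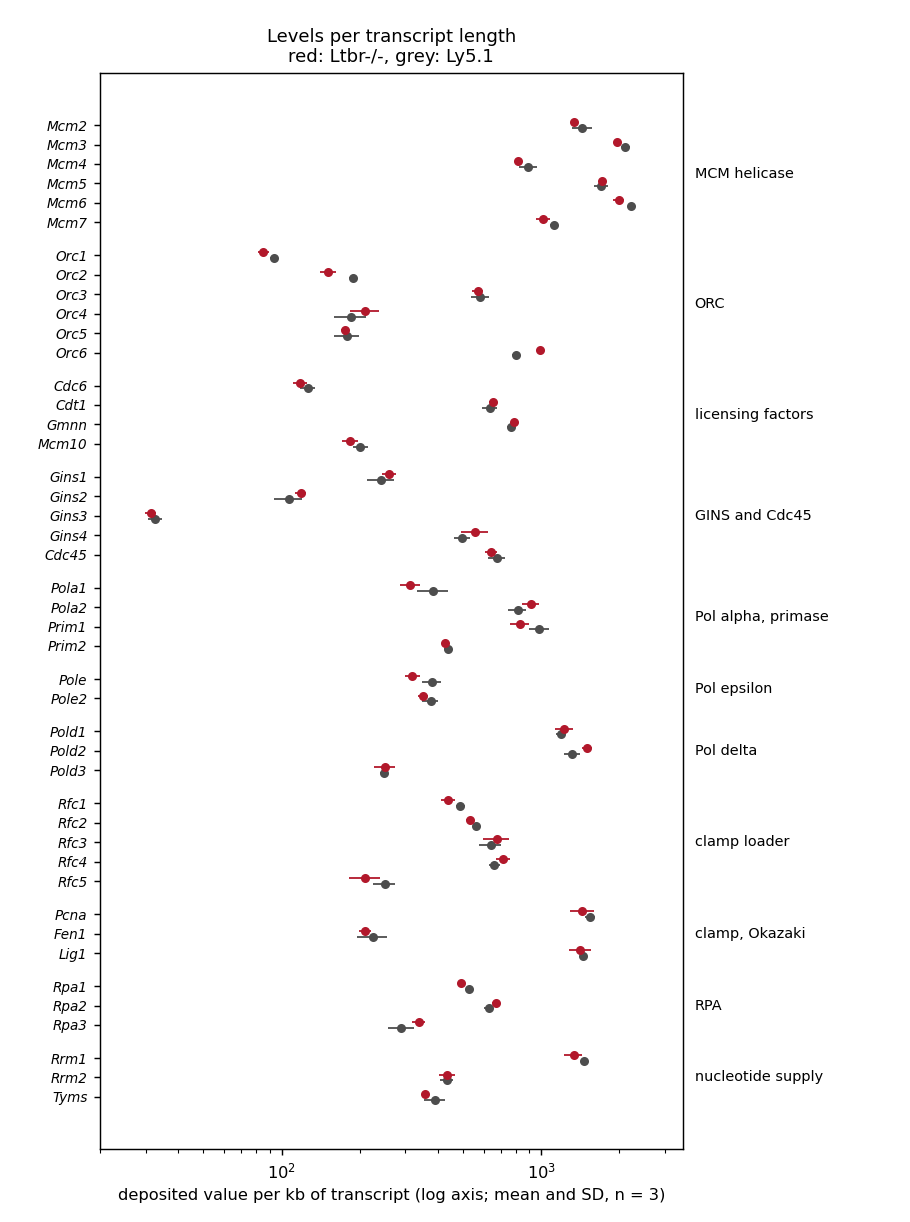
Level of each replication gene as the deposited value per kb of transcript (log axis), with the mean (point) and SD (line) of 3 Ltbr-/- samples in red and of 3 Ly5.1 samples in grey. Levels run from 32.0 per kb (Gins3) to 2102 (Mcm6) on average, and the red and grey points of a gene lie close together.

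Among the 44 genes Orc6 rose and Orc2, Pola1 and Pole fell in Ltbr-/- LT/ST-HSCs, and the other 40 were not called. With an adjusted p under 0.05, 4 of 44 were called, 1 higher (Orc6) and 3 lower (Orc2, Pola1 and Pole), where 14.8% of the 13108 tested genes were called (10.6% higher and 4.18% lower). With a fold of at least 1.5 as well, 0 of 44 were called by limma and 2.78% of the tested genes. At an unadjusted p under 0.05, 9 of 44 (20.5%) passed, 3 higher and 6 lower, beside 27.1% of the tested genes. The log2 fold changes ran from −0.32 to 0.30, 17 above and 27 below 0, with a median of −0.065 beside −0.011 for all tested genes. The 95% confidence intervals of all 44 lay within a 1.5-fold change in either direction. The lowest bound was −0.50, a 1.42-fold decrease (Orc2), and the highest was 0.47, a 1.39-fold increase (Orc6).

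In 12 of 44 genes (27.3%) the values of the 2 groups did not overlap, which held for 30.4% of the tested genes. In 9 of 44 (20.5%) they did not overlap and were lower in Ltbr-/-, which held for 13.5% of the tested genes. The 9 were Mcm3, Mcm6, Orc1, Orc2, Pole, Rfc2, Rpa1, Rrm1 and Tyms, and the 3 higher ones were Orc6, Pold2 and Rpa3. An exact permutation test of 3 against 3 cannot go below p = 0.1, the value it gave for these 12. Replicates were close, with a median coefficient of variation of 5.56% in Ltbr-/- and 6.44% in Ly5.1 samples. Per sample, the median deviation of the 44 genes from their own means was −0.039, −0.0067 and −0.017 (log2) in Ltbr-/- and 0.017, 0.032 and 0.023 in Ly5.1.

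**Figure D2:**
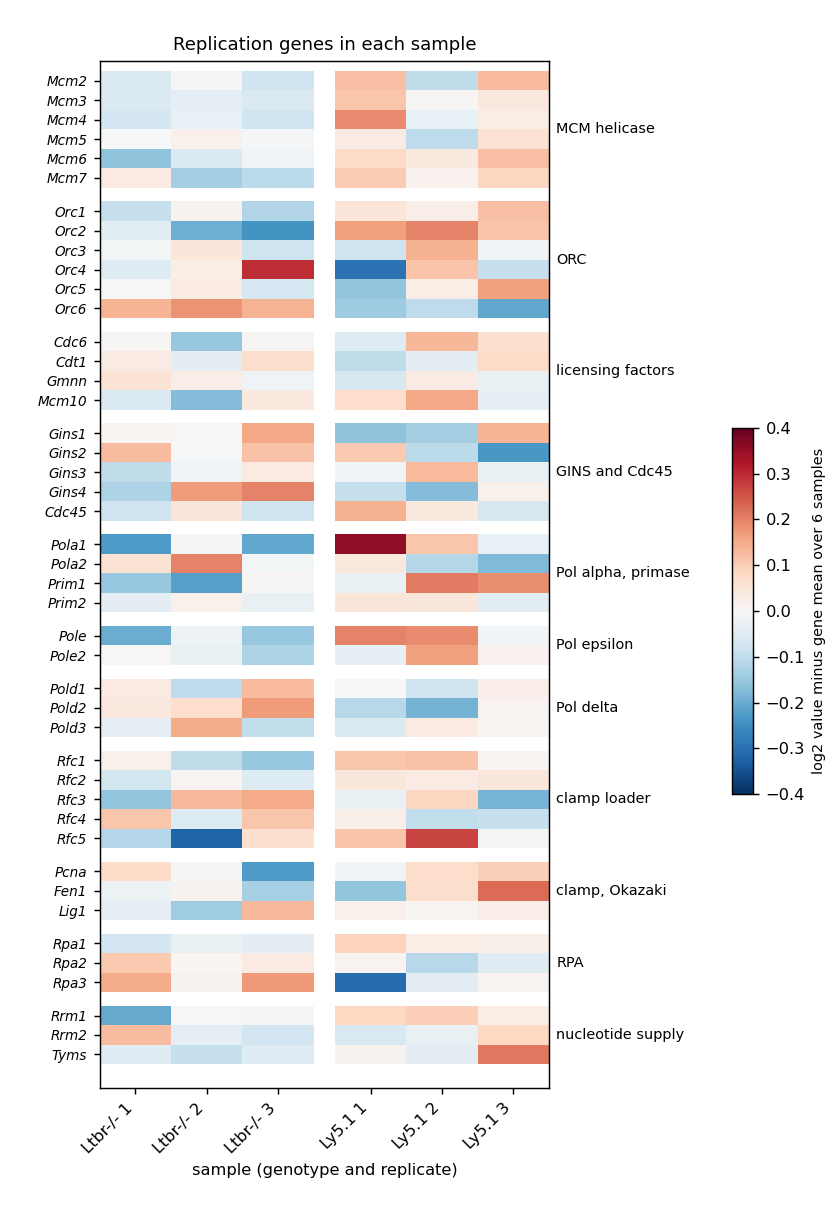
Log2 value of each replication gene in each of the 6 samples minus the mean of that gene over the 6 samples, by complex (blue lower, red higher). Most cells are pale, the Orc2 and Orc6 rows switch colour between the groups in opposite directions, and the MCM rows are mostly blue in Ltbr-/- and red in Ly5.1 with exceptions.

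**Figure D3:**
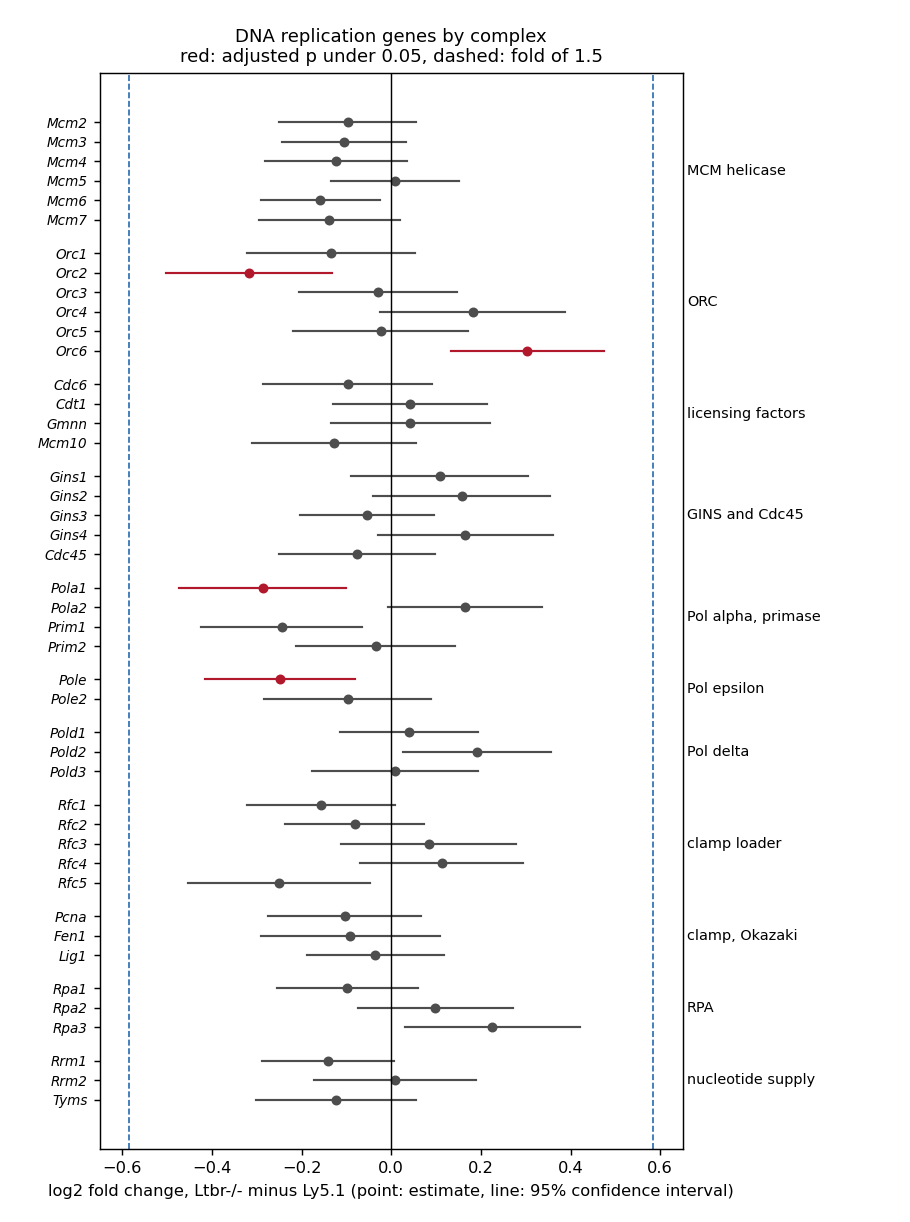
Log2 fold change of each replication gene (Ltbr-/- minus Ly5.1) with its 95% confidence interval, in red where the adjusted p was under 0.05. The 4 red genes are Orc2, Orc6, Pola1 and Pole, and every interval ends before the dashed lines at a fold of 1.5.

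The origin recognition complex held both the gene that rose and the gene that fell most. Orc6, the smallest subunit, stood at 1428, 1473 and 1431 in Ltbr-/- and at 1175, 1210.0 and 1126 in Ly5.1 samples. The groups were far apart, and Orc6 rose by a log2 fold change of 0.30 ± 0.08 (SE, n = 3 per group, limma adjusted p = 0.0106). Orc2, a core subunit of the ring that binds DNA, stood at 581, 523 and 508 in Ltbr-/- and at 671, 687 and 648 in Ly5.1 samples. Every Ltbr-/- sample was under every Ly5.1 sample, and Orc2 fell by 0.32 ± 0.09 on the log2 scale (SE, n = 3 per group, limma adjusted p = 0.0145). The Orc2 call was lost without Ltbr-/- replicate 2 (limma adjusted p = 0.0582), Ltbr-/- replicate 3 (0.0907) or Ly5.1 replicate 2 (0.0557), and the Orc6 call was kept without any 1 sample. The other subunits were not called. Orc1, an ATPase subunit that is made in a cell cycle dependent way, was at −0.13, Orc3 at −0.030, Orc4 at 0.18 and Orc5 at −0.024 on the log2 fold change scale.

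Within a sample, a ratio of 2 genes does not depend on a factor by which the whole sample is scaled, although quantile normalization can change it. The log2 ratio of Orc6 to Orc2 was 1.30, 1.49 and 1.49 in Ltbr-/- and 0.81, 0.82 and 0.80 in Ly5.1 samples. The ratios did not overlap and differed by 0.62 on the log2 scale. This ratio was chosen after the calls were seen and is given with no test.

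None of the 4 licensing and initiation factors was called, and none had an unadjusted p under 0.05. Gmnn encodes geminin, the inhibitor of Cdt1, and stood at 909, 889 and 863 in Ltbr-/- and at 834, 895 and 856 in Ly5.1 samples. Mcm10, which helps to start unwinding, stood at 898, 829.7 and 961 in Ltbr-/- and at 984, 1041 and 913 in Ly5.1 samples. Both pairs of groups overlapped, with log2 fold changes of 0.043 (Gmnn) and −0.13 (Mcm10) and limma adjusted p-values of 0.804 and 0.383. The loader Cdt1 was at 0.042 and Cdc6 at −0.098. The log2 ratio of Cdt1 to Gmnn was 0.67, 0.62 and 0.77 in Ltbr-/- samples and 0.66, 0.61 and 0.80 in Ly5.1 samples, with the groups overlapping.

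The 6 MCM genes encode the subunits of the ring. Mcm6, the gene with the highest level, stood at 8173, 8769.6 and 9028 in Ltbr-/- and at 9661, 9381 and 9924 in Ly5.1 samples. Mcm3 stood at 5919.9, 5998 and 5912 in Ltbr-/- and at 6651, 6191 and 6349 in Ly5.1 samples. In both genes every Ltbr-/- sample was under every Ly5.1 sample, but the differences were −0.16 ± 0.07 and −0.11 ± 0.07 (log2, SE, n = 3 per group) and missed the threshold (limma adjusted p = 0.103 and 0.333). With the replicate number added to the fit as a block, Mcm6 was called (limma adjusted p = 0.0459). Whether the replicate numbers pair the samples is not known. Mcm7 stood at 3230.2, 2873 and 2929 against 3386, 3194 and 3349, Mcm4 at 2902, 2986 and 2892 against 3481, 2985 and 3118, and Mcm2 at 4478, 4644 and 4421 against 5079.6, 4348 and 5099.8. In these 3 genes the groups overlapped by 1 sample or more, and the log2 fold changes were −0.14, −0.12 and −0.098. Mcm5 stood at 5753, 5836 and 5732 in Ltbr-/- and at 5894, 5352 and 6009 in Ly5.1 samples, a log2 fold change of 0.0073. It was the only MCM gene of the 6 above 0, and the median of the 6 was −0.11. Mcm6 lies 9.73 Mb from Ptprc, the CD45 gene at which the 2 donor strains differ by design, on chromosome 1, and the part of this in its value was not tested. For Mcm7, 14.1% of the 76-base windows of its transcript also occur in Gm5487, so that its value is less certain.

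The MCM calls depended on scaling. After quantile normalization of the samples 5 of the 6 genes, all but Mcm5, were called lower, with log2 fold changes from −0.22 (Mcm4 and Mcm7) to −0.44 (Mcm6) and a median of −0.23 for the 6. Other genes at these levels moved likewise. Of 573 other tested genes within the range of levels of the MCM genes, 11.7% were called lower with the values as deposited and 38.0% after quantile normalization, and their median log2 fold change went from 0.033 to −0.11. Over all tested genes, 71.7% of calls were higher as deposited and 57.7% after quantile normalization. The ribosomal protein genes differed as a class. The median log2 value of the ribosomal protein genes was 13.31, 13.33 and 13.43 in Ltbr-/- and 12.43, 12.38 and 12.64 in Ly5.1 samples, and with the samples centred on these genes the median of all tested genes moved to −0.89 and all 44 replication genes, Orc6 included, were below 0. Relative to that shift, Orc6 was at 0.31 and Orc2 at −0.31.

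Cdc45 and GINS complete the helicase. Gins4 had the largest log2 fold change of the group, with 649, 796 and 812 in Ltbr-/- and 661, 628 and 717 in Ly5.1 samples. Cdc45 had the smallest, with 1327, 1454 and 1331 in Ltbr-/- and 1553, 1445 and 1342 in Ly5.1 samples. The groups overlapped in both. The log2 fold changes were 0.17 for Gins4, 0.16 for Gins2, 0.11 for Gins1, −0.054 for Gins3 and −0.077 for Cdc45, with 0 of 5 called by limma and 0 at an unadjusted p under 0.05.

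Polymerase alpha and primase make the primers of both strands. Pola1, the catalytic subunit, stood at 1579, 1852 and 1599 in Ltbr-/- and at 2361, 1994 and 1805 in Ly5.1 samples. The groups overlapped, since Ltbr-/- replicate 2 was above Ly5.1 replicate 3, and Pola1 fell by 0.29 ± 0.09 on the log2 scale (SE, n = 3 per group, limma adjusted p = 0.0294, exact permutation p = 0.2). Its call was lost without Ltbr-/- replicate 1 (limma adjusted p = 0.123), Ltbr-/- replicate 3 (0.138), Ly5.1 replicate 1 (0.246) or Ly5.1 replicate 2 (0.0537). Its partner Pola2 stood at 2163, 2385 and 2061 in Ltbr-/- and at 2140.4, 1919 and 1838 in Ly5.1 samples. These groups overlapped too, with the difference in the other direction (0.16, limma adjusted p = 0.204). The log2 ratio of Pola2 to Pola1, chosen after the values were seen, was 0.45, 0.37 and 0.37 in Ltbr-/- and −0.14, −0.055 and 0.027 in Ly5.1 samples, so that the ratios did not overlap although the values of each gene did. Pola2 has a transcript of 2.421 kb and Pola1 of 5.346 kb, and the part of length in this ratio was not tested. The primase genes were at −0.24 (Prim1, the catalytic subunit, limma adjusted p = 0.0585) and −0.035 (Prim2).

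Polymerase epsilon copies the leading strand. Pole, its catalytic subunit, stood at 2167, 2451 and 2239 in Ltbr-/- and at 2856, 2838 and 2464 in Ly5.1 samples. The groups did not overlap, although the highest Ltbr-/- and the lowest Ly5.1 sample were close, and Pole fell by 0.25 ± 0.08 on the log2 scale (SE, n = 3 per group, limma adjusted p = 0.0357). The call was lost without Ltbr-/- replicate 1 (limma adjusted p = 0.147), Ltbr-/- replicate 3 (0.128), Ly5.1 replicate 1 (0.146) or Ly5.1 replicate 2 (0.124). Pole2 stood at 618, 606 and 567 in Ltbr-/- and at 601, 691 and 625 in Ly5.1 samples, overlapping groups with a log2 fold change of −0.097, and 10.4% of its windows occur in Gm49384.

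Polymerase delta, which copies the lagging strand, had all 3 genes above 0 and none called. Pold2, an accessory subunit, stood at 2379.7, 2433 and 2600.2 in Ltbr-/- and at 2140.5, 2027 and 2328 in Ly5.1 samples. Pold3 stood at 742, 845 and 712 in Ltbr-/- and at 732, 781 and 767 in Ly5.1 samples. The Pold2 groups did not overlap (log2 fold change 0.19, limma adjusted p = 0.114), whereas those of Pold3 did (0.0090), and the catalytic subunit Pold1 was at 0.039.

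**Figure D4:**
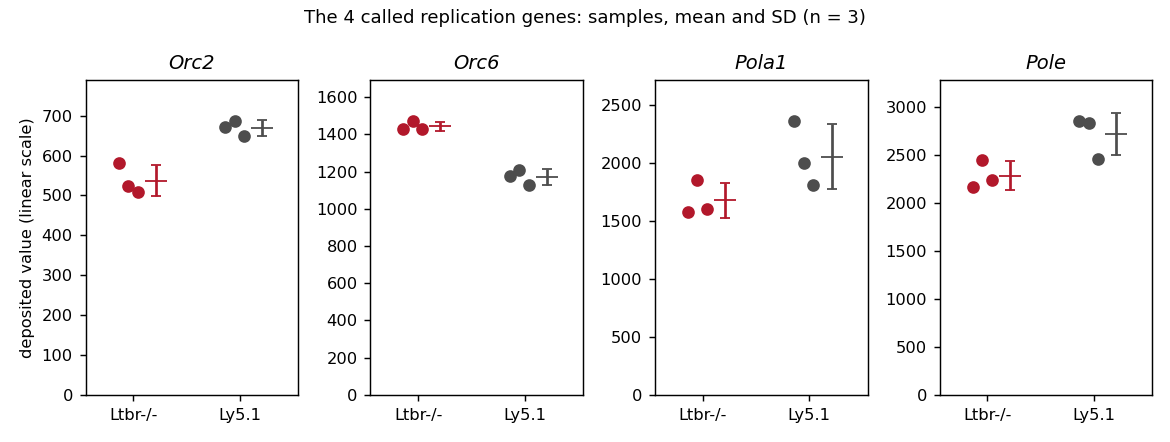
Deposited value (linear scale, axis from 0) of the 4 called replication genes in each of 3 Ltbr-/- (red) and 3 Ly5.1 (grey) samples, with mean and SD beside the points. Orc6 is higher in Ltbr-/- (1444 ± 25.0 against 1170.4 ± 42.3), Orc2 (537 ± 38.5 against 669 ± 19.6) and Pole (2286 ± 148 against 2719 ± 222) are lower without overlap, and Pola1 (1677 ± 152 against 2053 ± 283) is lower with overlap.

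The clamp loader opens PCNA and sets it on the primer. Rfc5 stood at 587, 509 and 667 in Ltbr-/- and at 689.9, 768 and 633 in Ly5.1 samples, and Rfc4 at 947, 845 and 946 against 890.3, 819 and 822. Both overlapped. The log2 fold changes were −0.25 for Rfc5 (limma adjusted p = 0.0892), −0.16 for the large subunit Rfc1, −0.082 for Rfc2, 0.083 for Rfc3 and 0.11 for Rfc4.

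The clamp and its partners at Okazaki fragments were not called. Pcna, the clamp, stood at 2382, 2247 and 1931 in Ltbr-/- and at 2235, 2377 and 2414 in Ly5.1 samples, a log2 fold change of −0.10 with a 95% confidence interval from −0.28 to 0.067 (limma adjusted p = 0.462). Lig1, the ligase that joins Okazaki fragments, stood at 4414, 4110.2 and 4961 in Ltbr-/- and at 4596, 4558 and 4624 in Ly5.1 samples, a log2 fold change of −0.035. The groups overlapped in both genes, and the flap endonuclease Fen1 was at −0.092. For Pcna, 23.4% of the windows also occur in the pseudogene Pcna-ps2, the largest such share of the 44 genes.

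RPA protects the unwound strands. Rpa3, the smallest subunit, stood at 231, 211 and 235 in Ltbr-/- and at 168, 202 and 210.2 in Ly5.1 samples. Rpa1, the largest, stood at 2455, 2527 and 2506 in Ltbr-/- and at 2753, 2635 and 2627 in Ly5.1 samples. The groups did not overlap in either gene, with opposite directions, and neither gene was called (log2 fold changes 0.23 and −0.098, limma adjusted p = 0.116 and 0.448), with Rpa2 at 0.098. Rpa3 shares 12.9% of its windows with Gm6195.

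The 3 genes of nucleotide supply were not called. Rrm2, the S phase subunit of ribonucleotide reductase, stood at 1034, 925 and 903 in Ltbr-/- and at 908, 930.0 and 1006 in Ly5.1 samples. Rrm1, the large subunit, stood at 4838, 5580.4 and 5556 in Ltbr-/- and at 5913, 5979 and 5691 in Ly5.1 samples. The Rrm2 groups overlapped, with a log2 fold change of 0.0079 (95% confidence interval −0.17 to 0.19), those of Rrm1 did not, at −0.14 (limma adjusted p = 0.205), and Tyms, which makes thymidylate, was at −0.12.

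By complex, the median log2 fold change was lowest in polymerase epsilon (−0.17), polymerase alpha and primase (−0.14), nucleotide supply (−0.12) and MCM (−0.11). It was −0.092 for the clamp and Okazaki group (−0.14 to −0.030 with each sample left out in turn), −0.082 for the clamp loader and −0.028 for the licensing factors. It was −0.027 for the origin recognition complex, and from −0.095 to 0.0094 with each sample left out in turn, so that its sign was not stable. It was above 0 in polymerase delta (0.039), RPA (0.098) and GINS with Cdc45 (0.11). Once the fold changes were corrected by loess for the length and GC content of the transcripts, the median of GINS with Cdc45 was 0.0018 and that of RPA 0.042. The 4 calls lay in 3 of the 11 groups.

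The log2 fold change went with transcript length. Over the 44 genes, the log2 fold change and the log10 transcript length had a Pearson r of −0.57 and a Spearman rho of −0.56, and over 11699 tested genes with a transcript the values were −0.38 and −0.41. These are descriptions across genes, which share the same 6 libraries. In the 22 members with shorter transcripts (0.67 to 2.796 kb) the median log2 fold change was 0.025 and 12 were above 0, beside a median of 0.039 and 61.1% above 0 for all 4953 genes of that range. In the 22 with longer ones (2.962 to 7.163 kb) the median was −0.11 and 5 were above 0, beside −0.052 and 33.4% for 5090 genes. After the loess correction Orc6 (0.24, limma adjusted p = 0.0400) and Orc2 (−0.29, 0.0249) were called, Pola1 (−0.22, 0.0741) and Pole (−0.17, 0.141) were not, and Prim1 was. Orc6 has a transcript of 1.47 kb and Orc2 of 3.56 kb, and Pole, at 7.163 kb, has the longest of the 44.

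**Figure D5:**
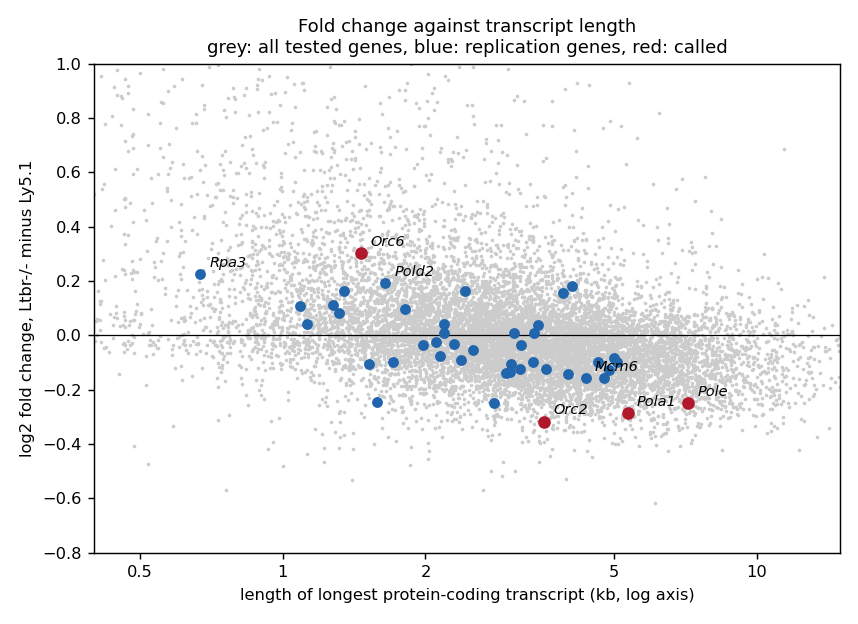
Log2 fold change (Ltbr-/- minus Ly5.1) against the length of the longest protein-coding transcript (kb, log axis) for tested genes (grey) and the 44 replication genes (blue, called in red). Grey points outside the axes are not drawn. Pearson r is −0.57 for the replication genes and −0.38 for all tested genes with a transcript, and Pole and Pola1 lie at the long end while Orc6 lies at the short end.

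Of 76 other genes of the pathway 75 were tested, 9 were called higher (12%, beside 10.6% of all tested genes) and 4 lower (5.33%, beside 4.18%), 17.3% in all beside 14.8%, and 1 passed the 1.5-fold limit as well. These shares are near those of all tested genes, and the genes are named as single calls. That gene was Nme2, a nucleoside diphosphate kinase, at 3402, 3269 and 3541 in Ltbr-/- and 1956, 2082 and 2399.9 in Ly5.1 samples (log2 fold change 0.67 ± 0.08, SE, n = 3 per group, limma adjusted p = 5.29e-08). Its close relative and neighbour Nme1 (0.37) was also higher, and reads of this pair may be split between them. Of 18 nucleotide synthesis genes, Dut (0.31), which removes dUTP, and Shmt2 (0.33), which supplies one-carbon units, completed the 4 called, all higher.

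Of 28 further subunits and fork proteins 3 were called higher and 2 lower, where 10.6% of all tested genes were called higher and 4.18% lower. The higher ones were Pold4 (0.58), the smallest polymerase delta subunit, and Rnaseh2a (0.33) and Rnaseh2c (0.35), subunits of the nuclease that removes ribonucleotides from DNA. The lower ones were Clspn (−0.26), a checkpoint mediator at the fork, and Wdhd1 (−0.25), which links the helicase to polymerase alpha. Of 6 tested chromatin assembly genes only Dnmt1 (−0.23), the maintenance methyltransferase, was called. Of 13 G1/S control genes 11 were below 0 with a median of −0.15, and 1 was called, Rbl1 (−0.25). Of 10 G2/M markers 9 were above 0 with a median of 0.19, and 2 were called, Cdc20 (0.46) and Ccnb2 (0.29). These lists are short, and 14.8% of all tested genes were called. Mki67, the proliferation marker, was the exception among the G2/M genes at −0.11 (limma adjusted p = 0.232). The 9 pathway genes called higher had transcripts from 0.913 kb (Pold4) to 3.181 kb (Nme1). Those of the 4 called lower ran from 4.26 kb (Wdhd1) to 5.87 kb (Dnmt1), and Mki67 has one of 10.061 kb. The part of transcript length in these differences was not tested.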

How the data were processed

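RNA of 6 samples of sorted LT/ST-HSCs, 3 Ltbr-/- and 3 Ly5.1, was made into stranded mRNA libraries and sequenced as single 76-base reads by the authors. They assembled the reads with SeqMan NGen and quantified them in ArrayStar, and the submitters' processing notes name DESeq2 and the builds GRCm38 and mm10. The authors deposited 1 signal per gene and sample, which is 2 to the power of a regularized log value as judged from the values themselves, with size factors and shrinkage included, so that fold changes of low genes are understated. The study's methods give an average number of reads for the samples, but no read counts per gene or sample were used here. The depth behind a single value is therefore unknown, no interval for counting error could be given, and precision rests on 3 replicates per group.

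Each sample had 26595 values for 26216 names; of a repeated name the row of highest mean was used, and the upper 50% by mean (13108) were tested. limma 3.58.1, run in R 4.3.3, fitted the log2 of the signal (lmFit, then eBayes with trend set), and p-values were adjusted over all tested names after Benjamini and Hochberg. A gene was called at an adjusted p under 0.05, without a fold limit, and the study's fold of 1.5 was counted as well. Replicate numbers came from the sample titles. Transcript lengths, GC content and 76-base windows shared between genes came from reference transcripts, and promoters and positions from RefSeq (GRCm38.p6). The fit was tested on simulated data with planted changes of 1.5-fold or more and independent noise. That check does not cover changes as small as those of the called replication genes, a length trend or a scaling shift. Per-sample values are given for the called genes, for the genes with the largest and smallest log2 fold change of each complex, and for Mcm2 to Mcm7, Pcna and Rrm2, and other genes of the pathway are named where called. The members and lists were chosen with earlier results of these data known. Alternatives were other filters, scalings, variance models, a replicate block, a length and GC correction, and leaving out each sample in turn.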

Additional observations from a re-analysis of the deposited data

How the results depend on the processing

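Limits. Orc6 was called under 18 alternatives, all but the 1.5-fold limit, which removed all 4 calls. Its sign turned only with centring on the ribosomal protein genes, where it was called lower (−0.57) and not higher. Orc2 was called under 13 of 18, and Pola1 and Pole under 9 of 18 each. These counts include the centring on the ribosomal protein genes, under which all 44 members were called lower. They also include settings that could hardly remove a call. The mean over repeated rows, a pseudocount of 1 and centring on the median of all tested genes left these fold changes almost unchanged, and no member has a repeated row. Depth per gene could not be read from the values, so low genes such as Gins3 rest on the spread between replicates alone. Leaving out 1 sample leaves a group of 2, and the fit pools the spread. The cause of the changes listed here was not tested unless the setting itself removes genes or samples.

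With no filter on low values, 355 genes were called lower, 1 of them a replication gene, and 1 complex held a call. With the upper 75% of names, 739 were called higher and 118 lower, with 0 replication genes lower and 1 complex with a call. With quantile normalization 914 genes were called lower, 10 of them replication genes, in 5 complexes. The median of the 44 was then −0.098, that of MCM −0.23, of the clamp loader −0.17 and of the clamp and Okazaki group −0.16, and Mcm5 (−0.17), Pold1 (−0.094), Pold3 (−0.0071) and Rrm2 (−0.022) turned below 0. Without a variance trend 1 replication gene was called lower, in 1 complex with a call. A per-gene linear model without moderation called 480 genes higher and 93 lower, with 0 replication genes lower and 1 complex with a call. With the 1.5-fold limit added, 356 were higher and 8 lower, with 0 replication genes in 0 complexes. With the 40 members with few shared windows the median was −0.045. The loess correction left medians of 0.0018 for GINS and Cdc45 and 0.042 for RPA, and turned Cdt1 (−0.0066), Gmnn (−0.070), Rfc3 (−0.0051) and Rrm2 (−0.011) below 0.

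Centred on the ribosomal protein genes, 21 genes were called higher and 12832 lower, with 0 replication genes higher and 44 lower, in 11 complexes. All medians moved with that of all tested genes (−0.89): −0.94 for the 44, −0.99 for MCM, −0.90 for the origin recognition complex and for the licensing factors, −0.77 for GINS and Cdc45, −1.02 for polymerase alpha and primase, −1.05 for polymerase epsilon, −0.84 for polymerase delta, −0.96 for the clamp loader, −0.97 for the clamp and Okazaki group, −0.78 for RPA and −0.9997 for nucleotide supply. The signs of Mcm5 (−0.87), Orc4 (−0.69), Orc6 (−0.57), Cdt1 (−0.83), Gmnn (−0.83), Gins1 (−0.77), Gins2 (−0.72), Gins4 (−0.71), Pola2 (−0.71), Pold1 (−0.84), Pold2 (−0.68), Pold3 (−0.87), Rfc3 (−0.79), Rfc4 (−0.76), Rpa2 (−0.78), Rpa3 (−0.65) and Rrm2 (−0.87) turned.

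Samples of 1 replicate number did not deviate together (r = 0.031, −0.0052 and 0.090). Whether they came from the same chimeras is not known, and these correlations cannot exclude such a pairing. With the replicate block 1 replication gene was called higher and 4 lower, the added one being Mcm6, and of all tested genes 1372 higher and 564 lower.

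With each of the 6 samples left out in turn, 1004 to 1400 genes were called higher and 249 to 599 lower, 1 to 2 replication genes higher and 0 to 4 lower, in 1 to 5 complexes. The median of the 44 ranged from −0.068 to −0.042, that of MCM from −0.17 to −0.069, of the origin recognition complex from −0.095 to 0.0094, of the clamp and Okazaki group from −0.14 to −0.030, of polymerase delta from 0.029 to 0.10 and of nucleotide supply from −0.13 to −0.050. Mcm5 (−0.044 to 0.040), Orc3 (−0.080 to 0.033), Orc5 (−0.11 to 0.052), Pold1 (−0.014 to 0.10), Pold3 (−0.064 to 0.060), Lig1 (−0.11 to 0.027) and Rrm2 (−0.051 to 0.051) changed sign in some of these fits. Among the replication genes 0 were called lower without Ly5.1 replicate 2 and 1, Orc2, without Ltbr-/- replicate 1, whereas without Ly5.1 replicate 3 there were 2 higher, with Pold2 added, and 4 lower, with Rfc5 added. Prim1 was called without Ltbr-/- replicate 3 or Ly5.1 replicate 1, and Rfc5 without Ltbr-/- replicate 3.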

Other observations

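Other pairs of subunits were compared by their log2 ratio within each sample, with pairs chosen after the values were seen and with no test. The ratio of Rfc4 to Rfc5, clamp loader subunits, was 0.69, 0.73 and 0.50 in Ltbr-/- and 0.37, 0.093 and 0.38 in Ly5.1 samples. The ratio of Rpa3 to Rpa1 was −3.41, −3.58 and −3.41 in Ltbr-/- and −4.03, −3.70 and −3.64 in Ly5.1 samples, and that of Mcm5 to Mcm6 was −0.51, −0.59 and −0.66 and −0.71, −0.81 and −0.72. None of these 3 overlapped between the groups, and neither did Pold2 to Pold1 (difference 0.15). Prim2 to Prim1 (difference 0.21) and Gins4 to Cdc45 (difference 0.24) overlapped. In 5 of these 6 pairs, all but Prim2 to Prim1, the first gene has the shorter transcript. The same holds for Orc6 to Orc2 and Pola2 to Pola1, and the part of length in the ratios was not tested.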
